A study of Rattus norvegicus with 4 samples.

Results

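The genes described here encode pre-mRNA splicing factors of rat aortic smooth muscle cells, measured after the cells had been exposed to PDGF-BB, the B-chain homodimer of platelet-derived growth factor. A gene belonged to the set when its annotated symbol began with Srsf and a digit, Hnrnp, Sf3a, Sf3b, Snrp, Prpf, U2af or Tra2, or was one of Clk1 to Clk4, Rbm5, Rbm10, Rbm25 and Rbm39. The rule used symbols alone and found 68 genes of the 12922 with a symbol on the array, read by 106 of its 23707 probe sets. A probe set is a group of short array probes designed for one transcript, and each gene was represented by its brightest probe set over the 4 arrays. One of the 68, Srsf7-ps4, is annotated as a pseudogene.

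The PDGF-BB group held 2 Affymetrix arrays, from cells given 30 ng/mL PDGF-BB for 3 h. The vehicle group held 2 arrays, from cells given the acetic acid and albumin solution for the same 3 h. Cells of both groups had been plated for 24 h in 10% fetal bovine serum and then kept for 72 h in medium without serum or insulin, so that starved cells were compared with and without the growth factor. Early transcripts of smooth muscle phenotypic modulation were what the comparison was designed to find. Nothing in the labels says that replicates came from separate cultures; each p-value therefore reflects array-to-array spread alone, which may be technical.

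Splicing removes introns from pre-mRNA in the spliceosome, which is built on each intron from small nuclear ribonucleoproteins (snRNPs). Most snRNPs hold an RNA in a ring of Sm proteins, with proteins of their own. SR proteins generally bind exonic enhancers and recruit the machinery, heterogeneous nuclear ribonucleoproteins (hnRNPs) often oppose them, and CLK kinases phosphorylate SR proteins and so set their activity and location. In vascular smooth muscle, alternative exons of contractile and cytoskeletal genes distinguish the contractile from the proliferative state, which PDGF-BB is known to promote. Gene-level probe sets of this kind read transcript abundance and give no exon inclusion values.

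The median intensity was 143.7 and 132.3 on the PDGF-BB arrays, against 144.9 and 147.7 on the vehicle arrays, and all genes had a median difference of -0.09 between PDGF-BB replicate 2 and replicate 1 on the log2 scale. All 7 smooth muscle markers were above the brightest Bacillus control probe set (80.3), with a summed intensity of 47135 to 48425 on the PDGF-BB arrays and 50319 to 51321 on the vehicle arrays. Acta2, Myl9, Tagln and Cnn1 made up most of that sum and did not pass, whereas 3 of the 7 were lower with PDGF-BB, Lmod1 (-1.70), Smtn (-0.79) and Myh11 (-0.70). None of the 4 endothelial markers measured exceeded that level. Of 6 macrophage and leukocyte markers, Cd14 and Aif1 did, and the 6 summed to 1369 to 1490 on the PDGF-BB arrays and 1620 to 1669 on the vehicle arrays. Cd14 made up most of that sum, at 1292.3 and 1125.6 with PDGF-BB, against 1395.3 and 1473.4 with vehicle. Aif1 went the other way, at 89.31 and 95.33 with PDGF-BB, against 85.95 and 79.74 with vehicle. None of the 6 passed. The part of these differences in the results below was not tested. Fewer cells of a type and less RNA per cell cannot be told apart in such bulk samples.

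Among the 68 splicing factor genes, 7 were higher and 6 were lower with PDGF-BB, and 55 did not pass. The higher genes were Hnrnpf, Prpf3, Tra2b, Srsf2, Hnrnpab, Srsf10 and Hnrnpu, and the lower ones Prpf18, Clk1, Rbm5, Clk2, Hnrnpul1 and Sf3b2. A call meant an adjusted p under 0.05 in limma's moderated test of log2(intensity + 16), two-sided, with Benjamini-Hochberg adjustment over all 23707 probe sets. Calls upward made up 10.3% of the splicing factors, where 12.4% of all genes on the array were called upward. Calls downward made up 8.82% of the splicing factors, where 15.3% of all genes were called downward. Among the 61 splicing factor genes with a mean intensity of at least 500 the shares were 11.5% up and 9.84% down, and among all 5014 genes in that range they were 19.5% up and 15.5% down. By the brightest probe set the changes were small: 0 of the 68 genes differed at least 2-fold, whereas 8.43% of all genes did. Of the 106 probe sets of these genes 1 did, the second of Rbm5 (-1.31). The median log2 fold change was -0.02 for the splicing factors and -0.03 for all genes. The PDGF-BB arrays were both above the vehicle arrays for 28 genes and both below for 28, while the groups overlapped for 12. The same arrangement held for 29.7% (above) and 37.8% (below) of all genes. With a mean intensity of at least 500, it held for 28 (above) and 24 (below) of the 61 splicing factor genes. Of all 5014 genes in that range it held for 1996 and 2123.

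The split of the calls depended on how the arrays were scaled to each other. It was 7 higher and 14 lower after quantile normalization, 14 higher and 9 lower with each array's median subtracted, and 10 higher and 11 lower after cyclic loess. In a fit with a vehicle array left out, the spread comes from the 2 PDGF-BB arrays and the variance prior, and the lone vehicle array is assumed to vary like them. Leaving out either vehicle array ended every call among the splicing factors, with 8 of the 68 genes (without replicate 1) and 10 (without replicate 2) still at an unadjusted p under 0.05 in limma; over all genes the calls then fell to 3.8% higher and 2.32% lower (without replicate 1) and to 4.06% and 2.5% (without replicate 2).

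**Figure D1:**
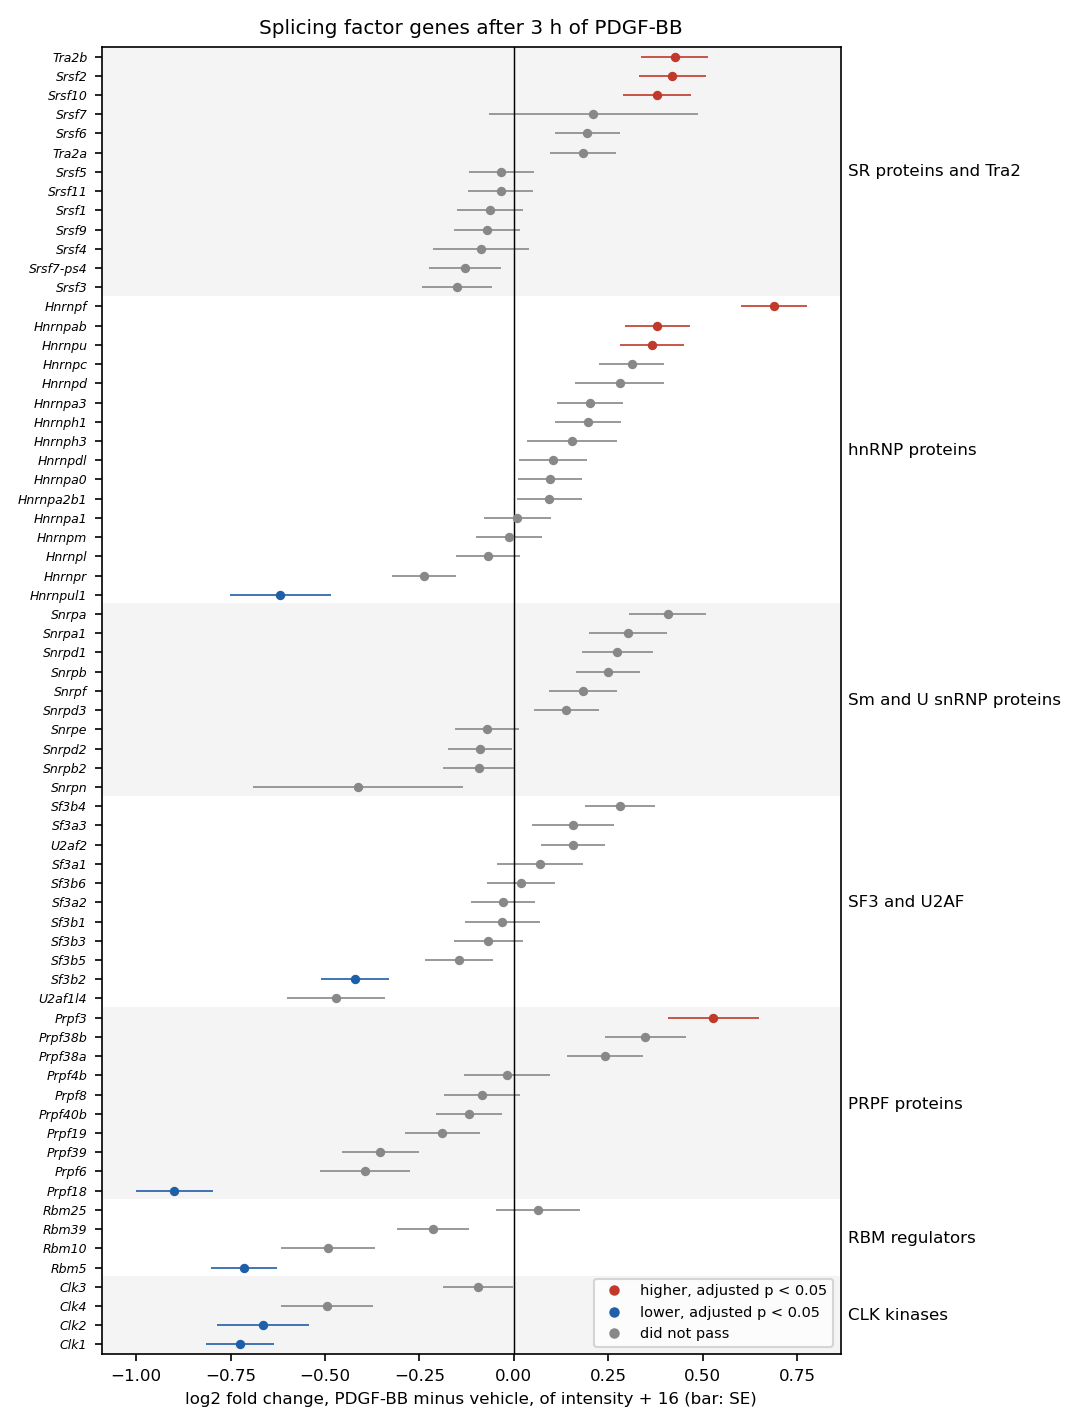
Log2 fold change of intensity + 16 (x axis, PDGF-BB minus vehicle, bars: SE) for each of the 68 splicing factor genes (y axis), grouped by class, 2 arrays in each group. Red marks the 7 genes higher at adjusted p under 0.05, blue the 6 lower, and grey the 55 that did not pass; none of the 4 Clk genes has a value above 0.

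The SR proteins and their relatives Tra2a and Tra2b formed a class of 13. Of these 3 were higher with PDGF-BB (23.1%, where 12.4% of all genes were) and 0 lower (where 15.3% were). Among all genes with a mean intensity of at least 500, 19.5% were higher and 15.5% lower. The median log2 fold change of the class was -0.03. The sign of that median was not settled: it was -0.13 after quantile normalization, 0.04 with array medians subtracted, 0.06 with the mean of all probe sets and 0.07 with dim probe sets left out. Tra2b encodes an SR-like protein that promotes inclusion of exons rich in GAA repeats. Its probe set read 4191.1 and 4146.0 on the PDGF-BB arrays, against 3013.2 and 3186.7 on the vehicle arrays. The groups were well apart, a 1.34-fold difference (log2 fold change 0.43, SE 0.089, limma adjusted p = 0.0339). Srsf2, the SR protein also called SC35, read 5911.1 and 5821.6 with PDGF-BB, against 4496.6 and 4269.1 with vehicle (log2 fold change 0.42, SE 0.088, limma adjusted p = 0.0346). Both PDGF-BB arrays stood above both vehicle arrays, and the dimmer of its 2 probe sets moved further, with 2223.2 and 2132.9 with PDGF-BB, against 1260.6 and 1267.8 with vehicle (0.78, limma adjusted p = 0.0074). Srsf10, an SR protein that acts as a general repressor when it is dephosphorylated, read 901.2 and 852.2 with PDGF-BB, against 685.1 and 655.5 with vehicle (0.38, SE 0.091, limma adjusted p = 0.0479). Again the groups did not overlap, but only 2 of its 5 probe sets were called. Tra2b was called under 8 of the 14 alternative settings and Srsf2 and Srsf10 under 7 each; all 3 calls ended with any 1 array left out.

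The other 10 genes of this class did not pass. Those above background lay between -0.09 (Srsf4) and 0.19 (Srsf6) and include Srsf1, the prototype of the family, at -0.06, Srsf5 at -0.03 and Tra2a at 0.18. The dimmer probe set of Srsf1 was at 0.22 and did not pass. Srsf5 changed sign, to 0.044, with array medians subtracted. Srsf3, Srsf7 and Srsf7-ps4 read at or below the brightest Bacillus control in both groups, so that these 3 probe sets were not above background and their fold changes have no order. For Srsf3, 2 further probe sets are annotated to several genes and were left out.

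The hnRNP class had 16 genes, of which 3 were higher (18.75%, where 12.4% of all genes were) and 1 was lower (6.25%, where 15.3% were). The other 12 did not pass. All 16 were bright, with mean intensities of 660.3 or more. Among all genes with a mean intensity of at least 500, 19.5% were higher and 15.5% lower, so the upward share of the class was no larger. In 11 of the 16 both PDGF-BB arrays were above both vehicle arrays, in 3 both were below and in 2 the groups overlapped. Over all genes 29.7% were above and 37.8% below in this way. Of the 5014 genes with a mean intensity of at least 500, 1996 were above and 2123 below. The class median was 0.13, but 0.01 after quantile normalization. Hnrnpf, whose protein binds runs of G beside regulated exons, had the largest positive log2 fold change of the 68 genes by brightest probe set. It read 3050.1 and 2935.8 with PDGF-BB, against 1825.6 and 1874.1 with vehicle, which is 1.61-fold higher (log2 fold change 0.69, SE 0.087, limma adjusted p = 0.00995). The spread within each group was a small part of that gap. Dimmer probe sets of Srsf2 (0.78) and Prpf3 (0.72) rose further. Hnrnpab, a protein of the A/B type found on mRNAs in nucleus and cytoplasm, read 6369.6 and 6213.9 with PDGF-BB, against 4753.2 and 4908.4 with vehicle (0.38, SE 0.087, limma adjusted p = 0.0422). Hnrnpu, the scaffold attachment factor that binds both RNA and chromatin, read 5312.6 and 5196.1 with PDGF-BB, against 4063.5 and 4088.9 with vehicle (0.37, SE 0.085, limma adjusted p = 0.0446). The calls of both genes ended after quantile normalization (limma adjusted p = 0.0521 for Hnrnpab and 0.0676 for Hnrnpu), as did that of Srsf2 (limma adjusted p = 0.0549).

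Hnrnpul1, a relative of Hnrnpu with roles in RNA processing and the DNA damage response, went the other way. It read 854.3 and 689.2 with PDGF-BB, against 1200.8 and 1173.0 with vehicle, and so fell by 0.62 on the log2 scale (SE 0.13, limma adjusted p = 0.0366), with PDGF-BB replicate 2 the lowest array. The remaining hnRNP genes ran from -0.24 (Hnrnpr) to 0.31 (Hnrnpc, limma adjusted p = 0.0676). Hnrnpa3, at 6557.6 and 6811.9 with PDGF-BB and 5863.4 and 5752.5 with vehicle, and Hnrnph1 had log2 fold changes of 0.20 each and did not pass. Hnrnpa1 and Hnrnpa2b1, well known repressors of exon inclusion, were at 0.01 and 0.09. The dimmer probe sets of Hnrnpa2b1 were at -0.07 and 0.33, and neither passed.

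The 10 genes for Sm proteins and proteins of single snRNPs held 0 calls by limma's adjusted p. Unadjusted, 4 of them had a limma p under 0.05, where 5365 of all 12922 genes did. The median of the 10 was 0.16, and 0.01 after quantile normalization. Snrpa, the U1 snRNP protein that binds a stem loop of U1 RNA, had 0.41 (limma adjusted p = 0.0542). Snrpa1 of the U2 snRNP had 0.30, and the Sm core proteins Snrpd1 and Snrpb had 0.27 and 0.25. Snrpe and Snrpd2, also of the Sm core, were at -0.07 and -0.09, and Snrpe changed sign, to 0.0047, with array medians subtracted. Snrpn read 102.6 and 108.6 with PDGF-BB, against 107.3 and 196.2 with vehicle (-0.41, limma adjusted p = 0.357), so that its difference rested on vehicle replicate 2 alone. For this gene, 2 further probe sets are also annotated to the overlapping Snurf and were not used.

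The SF3A, SF3B and U2AF proteins recognise the branch point and the 3′ splice site. Of 11 genes 1 was lower (9.09%, where 15.3% of all genes were), 0 higher and 10 did not pass. The class median was -0.03. That median was -0.12 after quantile normalization, -0.07 with the mean of all probe sets, 0.05 with array medians subtracted and 0.03 without PDGF-BB replicate 2. Sf3b2, a subunit of the SF3B complex of the U2 snRNP, read 1662.0 and 1551.8 with PDGF-BB, against 2134.2 and 2176.2 with vehicle. Both PDGF-BB arrays were below both vehicle arrays (-0.42, SE 0.091, limma adjusted p = 0.0372), while its second probe set did not pass. Sf3b1, the subunit that holds the branch point, was at -0.03 and Sf3b5 at -0.15. U2af1l4, a relative of the small U2AF subunit, was at -0.47 (limma adjusted p = 0.0663) and U2af2, the large subunit, at 0.16. The sign of Sf3b1 turned, to 0.046, with array medians subtracted and likewise without PDGF-BB replicate 2.

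The PRPF proteins, named after yeast genes for pre-mRNA processing, were 10, with a median of -0.10. Of these 1 was higher and 1 lower (10% each, where 12.4% and 15.3% of all genes were), and 8 did not pass. Prpf18, whose yeast counterpart acts in the second catalytic step, had the largest fall of the 68 by brightest probe set. Its values were 415.7 and 369.6 with PDGF-BB, against 760.4 and 730.2 with vehicle, 1.87-fold lower (log2 fold change -0.90, SE 0.10, limma adjusted p = 0.00773). Every PDGF-BB value lay far under the vehicle values. The second probe set of Prpf18 was at -0.50 and did not pass. Dimmer probe sets of Rbm5 (-1.31) and Rbm39 (-0.93) fell further. Prpf3, a protein of the U4/U6 snRNP, read 775.1 and 646.9 with PDGF-BB, against 484.0 and 488.2 with vehicle (0.53, SE 0.12, limma adjusted p = 0.0424). Here PDGF-BB replicate 1 was well above replicate 2, and both were above the vehicle arrays. The central U5 protein Prpf8 was at -0.08 and the ubiquitin ligase Prpf19 at -0.19; Prpf6, which bridges snRNPs of the tri-snRNP, was at -0.39 (limma adjusted p = 0.084) and Prpf38b at 0.35 (limma adjusted p = 0.0842).

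The 4 RBM genes encode RNA-binding regulators of exon choice. With PDGF-BB 1 of them was lower (25%, where 15.3% of all genes were). Rbm5, a regulator of Fas and other apoptosis transcripts, read 1602.1 and 1524.7 with PDGF-BB, against 2604.2 and 2545.6 with vehicle. That is 1.64-fold lower (log2 fold change -0.71, SE 0.088, limma adjusted p = 0.00941), with no array of one group near the other. Rbm10, its close relative, was at -0.49 (limma adjusted p = 0.0539), Rbm39, a U2AF-related factor, at -0.21 (limma adjusted p = 0.184) and Rbm25 at 0.06.

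The CLK kinases phosphorylate SR proteins in the nucleus. Of the 4, 2 were lower with PDGF-BB (50%, where 15.3% of all genes were). All 4 had both PDGF-BB arrays below both vehicle arrays, as did 37.8% of all genes. The median log2 fold change of the class was -0.58. Clk1 read 1727.4 and 1626.5 with PDGF-BB, against 2822.3 and 2738.4 with vehicle (log2 fold change -0.72, SE 0.090, limma adjusted p = 0.00958). The groups lay 1.65-fold apart with little spread in either. Clk2 read 481.9 and 400.3 with PDGF-BB, against 704.9 and 706.3 with vehicle (-0.66, SE 0.12, limma adjusted p = 0.0242). Its vehicle arrays were close together and its PDGF-BB arrays further apart. Clk4 read 686.7 and 576.5 with PDGF-BB, against 917.9 and 869.9 with vehicle (-0.50, SE 0.12), and narrowly missed the threshold (limma adjusted p = 0.0502). Clk3 read 436.0 and 402.0 with PDGF-BB, against 446.7 and 450.4 with vehicle (-0.10, limma adjusted p = 0.519). Its lower PDGF-BB array set most of that difference, and its sign turned, to 0.0063, after cyclic loess. The class median was -0.45 when the second PDGF-BB array was left out and -0.69 when the first was, and between these bounds under the other 12 alternatives.

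**Figure D2:**
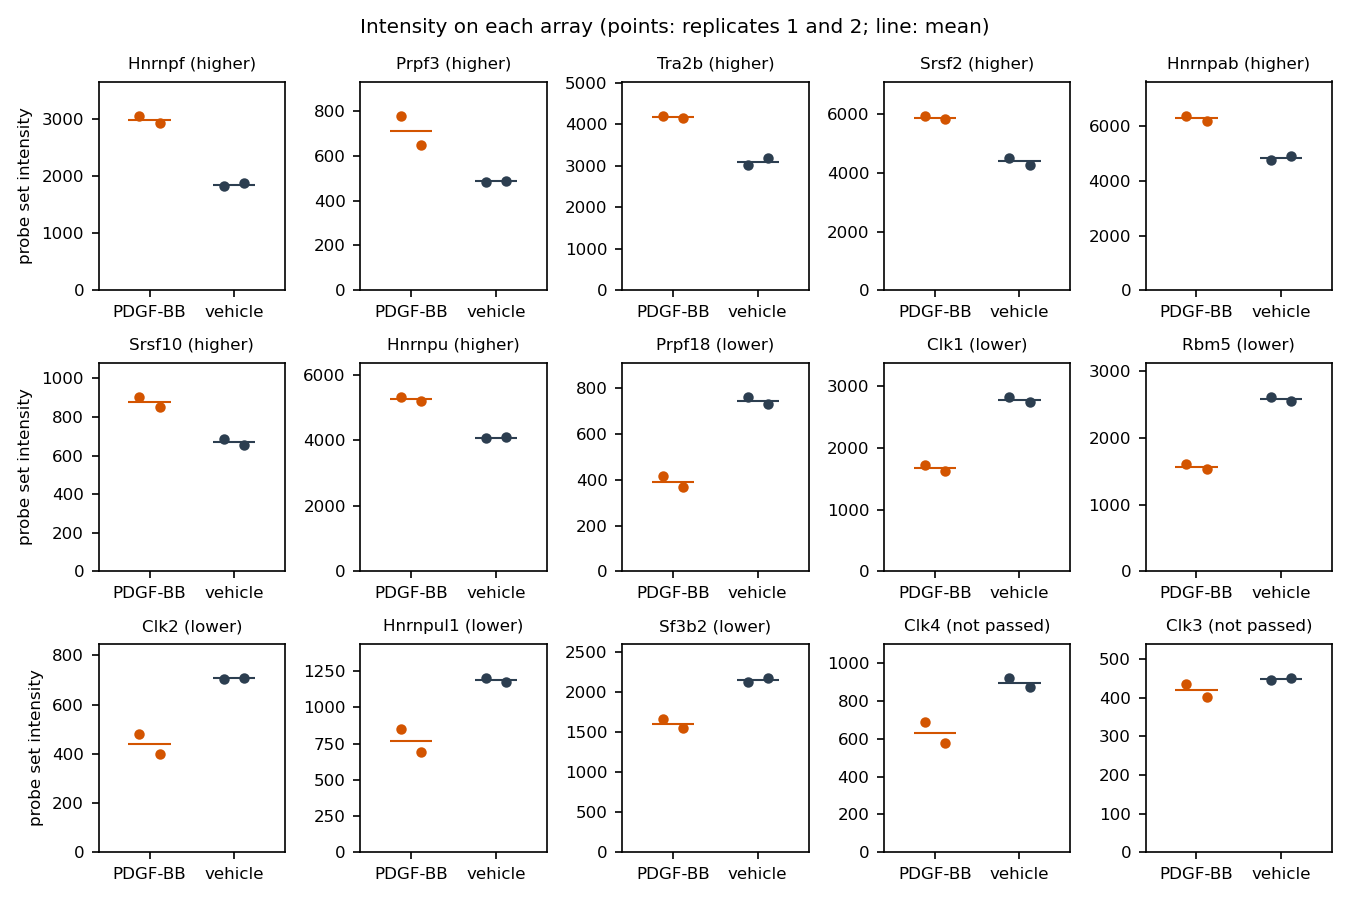
Probe set intensity on the linear scale (y axis, from 0) on each of the 4 arrays for the 13 called splicing factor genes and for Clk4 and Clk3, with PDGF-BB on the left and vehicle on the right. Points are arrays and lines are group means. The groups do not overlap in any panel, which adds no support to calls made on these same values. The gap is narrowest for Clk3 (402.0 to 436.0 with PDGF-BB, 446.7 to 450.4 with vehicle).

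Hnrnpf, Prpf18, Clk1 and Rbm5 were called under 12 of the 14 alternatives, all but the omission of either vehicle array, where their adjusted p lay between 0.0652 and 0.0985. Clk2 and Hnrnpul1 were called under 10, Prpf3 under 9, Hnrnpab and Sf3b2 under 7 and Hnrnpu under 6. With 1 array left out, Clk2 and Hnrnpul1 stayed called only when it was PDGF-BB replicate 1, Prpf3 only when it was PDGF-BB replicate 2, and Hnrnpab, Sf3b2 and Hnrnpu in no case. The most calls, 19 higher and 13 lower, came with a variance prior that follows intensity.

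**Figure D3:**
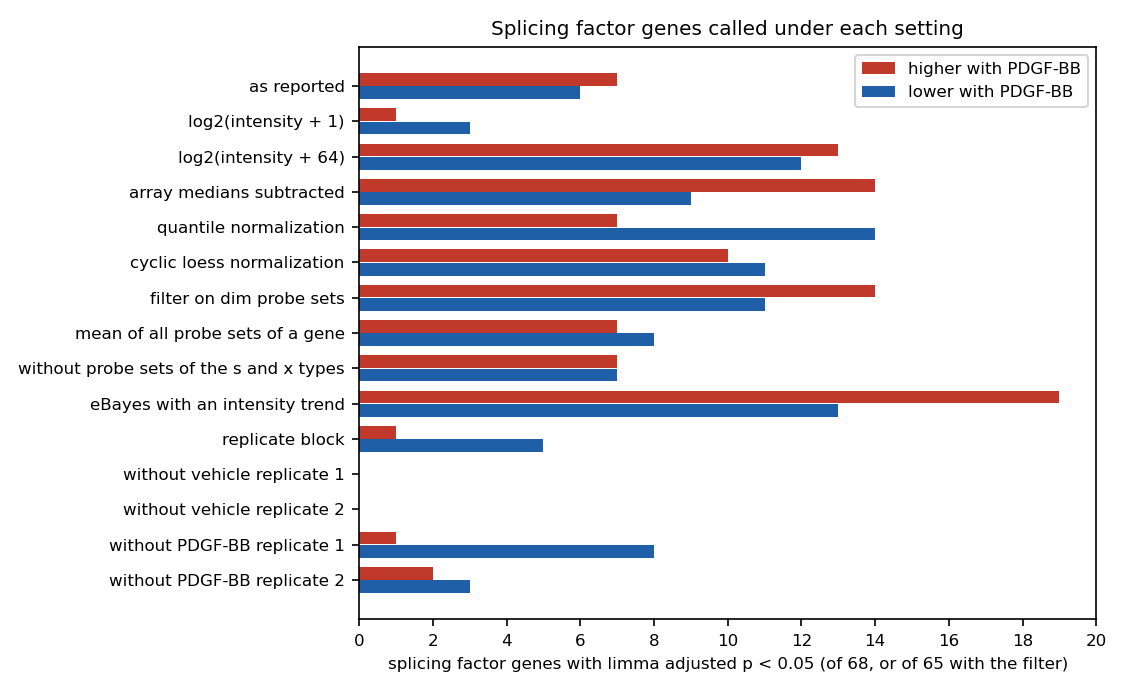
Number of splicing factor genes (x axis) with a limma adjusted p under 0.05 under the reported setting and each of the 14 alternatives (y axis), red for higher and blue for lower with PDGF-BB. The reported setting gives 7 and 6, the variance prior with an intensity trend 19 and 13, and both settings that leave out a vehicle array 0 and 0.

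Of the 68 genes, 22 had several probe sets, which differ in the stretch of transcript they read. Over all 106 probe sets 11 were higher and 9 lower, against 11.4% and 12.9% of all probe sets. In 0 of the 22 genes were probe sets called in opposite directions, and in 7 the signs were mixed. The 7 with mixed signs were Sf3b1, Hnrnpu, Hnrnpa2b1, Hnrnpdl, Srsf6, Sf3a1 and Srsf1. All probe sets were called one way in 3 genes, Rbm5, Srsf2 and Tra2b, whereas in 6 genes some but not all were, and in 13 genes none was. The 6 were Srsf10 (2 of 5 called), Prpf3 (2 of 3), Prpf18 (1 of 2), Sf3b2 (1 of 2), Hnrnpu (1 of 3) and Rbm39 (2 of 4). The second probe set of Rbm5 read 810.7 and 661.5 with PDGF-BB, against 1813.5 and 1858.1 with vehicle (-1.31, limma adjusted p = 0.00562), further apart than the brightest one. Of the 13 called genes, 5 had only 1 probe set.

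Rbm39 was called through probe sets other than its brightest. One read 1719.7 and 1545.0 with PDGF-BB, against 3194.6 and 3041.2 with vehicle (-0.93, limma adjusted p = 0.00713). Another read 1783.0 and 1590.7 with PDGF-BB, against 2402.3 and 2494.2 with vehicle (-0.54, limma adjusted p = 0.0272). The brightest read 3650.2 and 3435.4 with PDGF-BB, against 3979.3 and 4248.7 with vehicle, and was not called. All 4 probe sets of Rbm39 were lower on both PDGF-BB arrays, by different amounts. In Hnrnpu the dimmest of 3 probe sets had the opposite sign of the called one (-0.28, not passed). In Sf3b1 the 3 probe sets ran from -0.87 to 0.12, and the lowest of them had vehicle arrays at 363.5 and 573.1, far apart from each other.

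**Figure D4:**
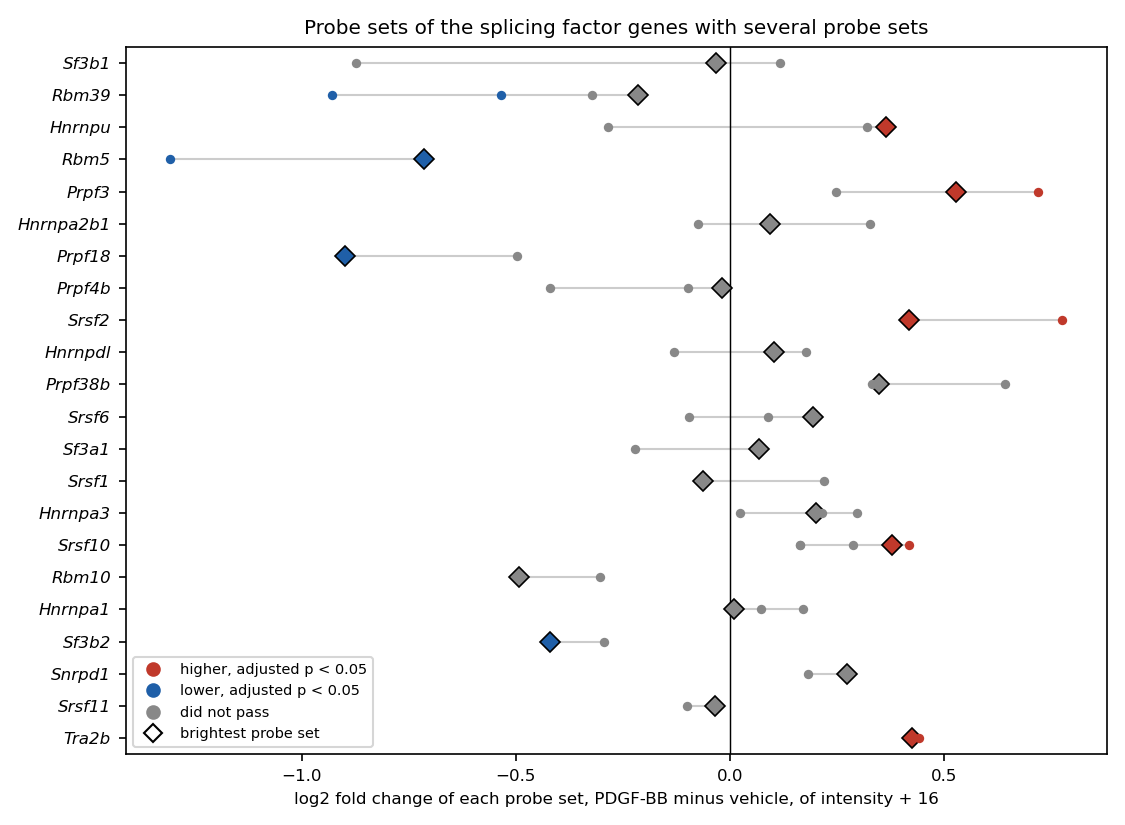
Log2 fold change of intensity + 16 (x axis, PDGF-BB minus vehicle) of every probe set of the 22 splicing factor genes with several (y axis), with the brightest as a diamond. Red and blue mark probe sets higher or lower at adjusted p under 0.05; Rbm5 lies wholly to the left with both called, and Rbm39 has 2 blue points at -0.93 and -0.54 while its diamond at -0.21 is grey.

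Several of these genes have pseudogene copies. RefSeq lists 51 pseudogenes named after Hnrnpa1, 10 after Srsf3, 7 after Srsf7, 6 each after Tra2b and Hnrnpc and 4 after Hnrnpf. Whether the probes also match such copies was not tested, so the values of these genes are uncertain to that extent.

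Promoter windows of RefSeq (assembly GRCr8, from 250 bases before to 50 after the annotated start) were matched for 64 of the 68 genes. The 4 below belong to the higher and the lower genes with the smallest p that had a window. The higher ones are Hnrnpf (chr4:152755418-152755717, plus strand) and Tra2b (chr11:92293192-92293491, plus strand). The lower ones are Prpf18 (chr17:78539640-78539939, plus strand) and Rbm5 (chr8:117327657-117327956, minus strand). Each runs 5′ to 3′ on the gene's strand, and capitals mark a CCAAT box (CCAAT on either strand) or an ETS core (CCGGAAG on either strand).
Hnrnpf: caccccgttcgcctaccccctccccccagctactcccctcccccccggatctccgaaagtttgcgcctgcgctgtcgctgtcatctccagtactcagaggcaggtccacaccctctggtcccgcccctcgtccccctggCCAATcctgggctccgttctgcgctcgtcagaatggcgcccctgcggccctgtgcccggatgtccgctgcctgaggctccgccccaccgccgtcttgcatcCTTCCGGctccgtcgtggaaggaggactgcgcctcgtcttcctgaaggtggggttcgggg
Tra2b: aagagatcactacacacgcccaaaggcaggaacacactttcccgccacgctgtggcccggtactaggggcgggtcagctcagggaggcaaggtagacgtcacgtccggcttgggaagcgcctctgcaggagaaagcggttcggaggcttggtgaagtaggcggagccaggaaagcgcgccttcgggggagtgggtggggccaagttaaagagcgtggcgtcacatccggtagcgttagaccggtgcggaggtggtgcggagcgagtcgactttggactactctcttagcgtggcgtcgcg
Prpf18: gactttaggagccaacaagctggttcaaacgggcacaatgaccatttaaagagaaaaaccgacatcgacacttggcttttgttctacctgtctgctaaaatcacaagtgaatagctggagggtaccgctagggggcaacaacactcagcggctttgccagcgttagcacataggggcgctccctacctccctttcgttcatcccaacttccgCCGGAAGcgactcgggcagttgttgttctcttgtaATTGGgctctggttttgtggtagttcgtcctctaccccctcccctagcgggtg
Rbm5: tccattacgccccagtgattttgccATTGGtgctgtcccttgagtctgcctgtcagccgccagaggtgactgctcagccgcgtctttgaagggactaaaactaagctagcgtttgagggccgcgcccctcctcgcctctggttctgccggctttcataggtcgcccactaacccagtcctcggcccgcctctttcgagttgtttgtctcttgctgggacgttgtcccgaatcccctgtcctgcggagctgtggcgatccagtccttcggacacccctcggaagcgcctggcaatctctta
Hnrnpf and Prpf18 each hold both motifs, Rbm5 holds a CCAAT box alone and Tra2b neither. Whether the motifs are related to the direction of change was not tested. CCAAT, a short motif bound by the factor NF-Y, stood in 35 of the 64 windows (54.7%), against 37.5% of the 10655 windows of array genes. It was present in 5 of the 7 higher genes, in 3 of the 5 lower genes with a window and in 27 of the 52 that did not pass. The ETS core stood in 17 of the 64 (26.6%), against 15.2% of array genes, in 1 of the higher genes, in 1 of the lower and in 15 of the others. The E-box CACGTG was in 8 (12.5%, against 8.9%), the AP-1 letters TGANTCA in 3 (4.7%, against 5.5%), and the cyclic AMP response element TGACGTCA and the FOXO letters TGTTTAC in 0, against 2.9% and 2.4%, all on both strands. These are counts of letters in the windows, and Clk1 (chr9:67453131-67453430, minus strand) held none of the 6 motifs.

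A further 125 splicing genes outside the symbol rule were read from a list of 146 chosen by role, and 15 were higher, 11 lower and 99 did not pass, with a median of -0.02. The shares, 12% higher and 8.8% lower, were no larger than the 12.4% and 15.3% over all genes. Of the 125, 5 differed at least 2-fold (4%, where 8.43% of all genes did). Sfpq, a paraspeckle protein that binds polypyrimidine tracts, read 2739.8 and 2611.5 with PDGF-BB, against 1111.9 and 1122.0 with vehicle (log2 fold change 1.25, SE 0.087, limma adjusted p = 0.00272). Its vehicle arrays were nearly equal and both PDGF-BB arrays more than 2-fold above them. Ddx39a, an RNA helicase of splicing and mRNA export, read 2089.8 and 1947.2 with PDGF-BB, against 858.1 and 911.9 with vehicle (1.18, SE 0.095, limma adjusted p = 0.00382). These 2 genes and Gemin2 were called under all 14 alternatives.

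Outside the CLK family, the list held 4 kinases that phosphorylate SR proteins. With PDGF-BB 1 was higher (25%, where 12.4% of all genes were) and 1 lower (25%, where 15.3% were). The other 2, Dyrk1a (0.31, limma adjusted p = 0.149) and Srpk3 (0.16, limma adjusted p = 0.498), complete the group and did not pass. Srpk1, which acts largely in the cytoplasm, read 801.2 and 706.2 with PDGF-BB, against 343.4 and 375.3 with vehicle (1.04, SE 0.11, limma adjusted p = 0.00689). Srpk2, its paralogue, read 677.4 and 669.8 with PDGF-BB, against 865.1 and 909.9 with vehicle, and was lower (-0.39, SE 0.088, limma adjusted p = 0.0413). Srpk1 was higher while Clk1 and Clk2, which share SR proteins as substrates, were lower; the difference between the kinases was not tested.

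Genes for assembly of snRNPs by the SMN complex moved both ways, with 4 of 15 higher (26.7%) and 3 lower (20%), beside the same all-gene shares of 12.4% and 15.3%. Wdr77, a partner of the methyltransferase that modifies Sm proteins before assembly, read 2527.7 and 2313.8 with PDGF-BB, against 1240.9 and 1349.8 with vehicle (0.89, SE 0.10, limma adjusted p = 0.00795). Gemin2, the subunit that holds the Sm pentamer, read 162.7 and 153.7 with PDGF-BB, against 381.1 and 397.1 with vehicle (-1.22, SE 0.090, limma adjusted p = 0.00306). Gemin6 read 170.6 and 164.9 with PDGF-BB, against 352.8 and 358.6 with vehicle (-1.02, SE 0.086, limma adjusted p = 0.00416). The higher genes also included Smn1 (0.63), Phax (0.53) and Strap (0.42) and the lower ones Gemin8 (-0.78), all 4 named after their values were seen. The groups of these 7 did not overlap, which adds no support, since the genes were listed because they were called on the same values.

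Among 30 splicing regulators of smooth muscle and other tissues, 5 were higher (16.7%, where the share over all genes was 12.4%). Another 2 were lower (6.67%, where it was 15.3%), and 2 of the 30 were not above background in either group. Among all genes with a mean intensity of at least 500 the shares were 19.5% higher and 15.5% lower. Rbfox2, which binds UGCAUG beside exons and acts in muscle splicing, read 863.2 and 703.9 with PDGF-BB, against 1495.4 and 1293.8 with vehicle (-0.82, SE 0.15, limma adjusted p = 0.0227). Both its groups were spread, but the lowest vehicle array was still far above the highest PDGF-BB array. Pspc1, a paraspeckle partner of Sfpq, was at 0.55 (limma adjusted p = 0.0199). Ptbp1, a repressor of smooth muscle exons that was picked out after its value was seen, was at 0.30 and did not pass (limma adjusted p = 0.0743). Elsewhere in the list, Sf1, which binds the branch point first, read 1521.4 and 1390.3 with PDGF-BB, against 872.3 and 819.0 with vehicle (0.77, limma adjusted p = 0.0104). It was the only call in its group of 15, the 3′ splice site and A complex factors, where 14 (93.3%) did not pass. The helicase Dhx15 was higher (0.50), as was the exon junction protein Rnps1 (0.45), whereas Acin1 (-0.57), Luc7l2 (-0.64), Lsm8 (-0.46) and Bcas2 (-0.39) were lower. Of the U1, U5 and helicase genes 21 of 26 (80.8%) did not pass, and of the Lsm ring 6 of 7 (85.7%). The same held for 20 of 21 Prp19 complex and step factors (95.2%) and 5 of 7 exon junction genes (71.4%). Over all genes 72.3% did not pass.

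**Figure D5:**
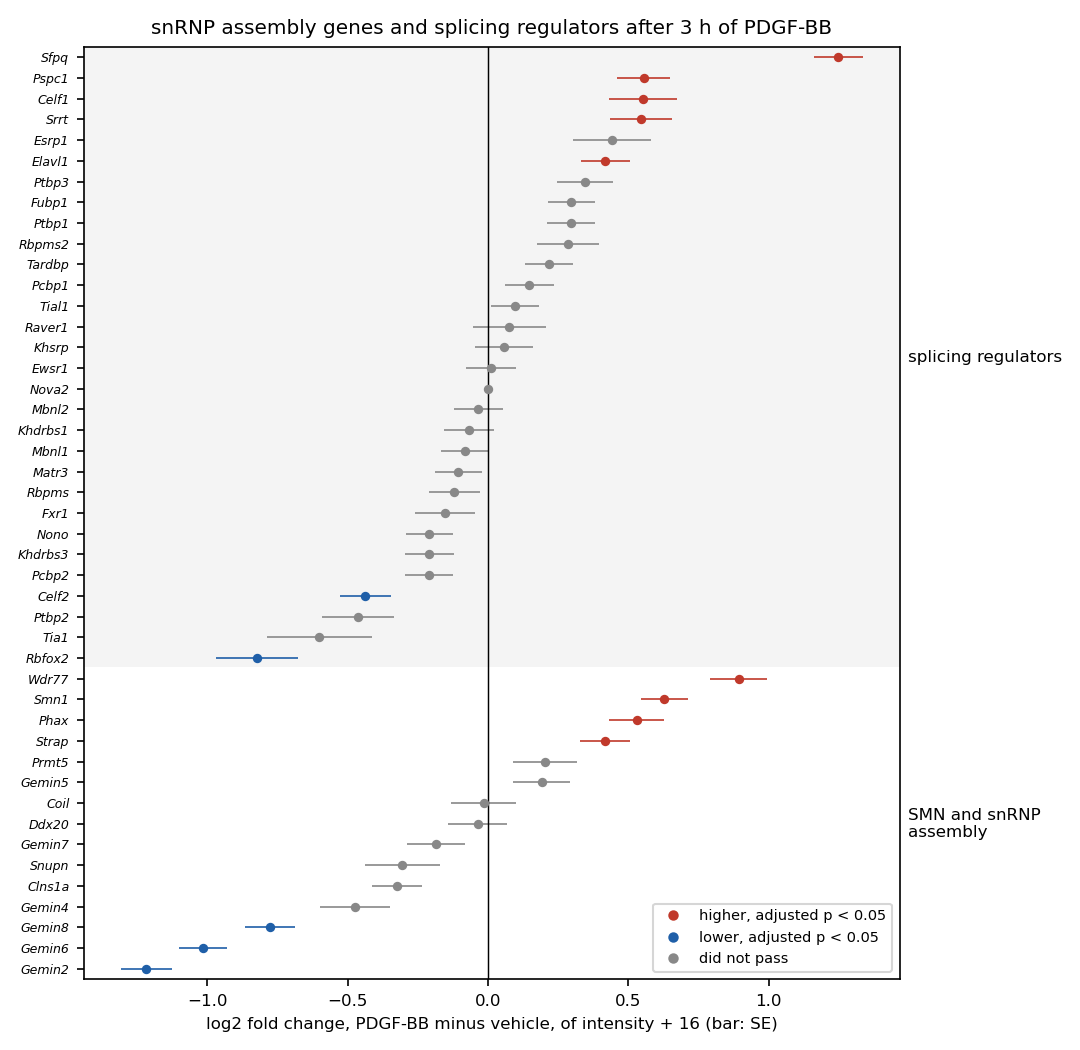
Log2 fold change of intensity + 16 (x axis, PDGF-BB minus vehicle, bars: SE) for 30 splicing regulators and 15 genes of SMN and snRNP assembly outside the symbol rule (y axis). Red marks genes higher and blue genes lower at adjusted p under 0.05; Sfpq at 1.25 and Gemin2 at -1.22 lie at the ends.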

How the data were processed

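RNA of rat aortic smooth muscle cells was hybridised to 4 Affymetrix arrays, 2 for PDGF-BB and 2 for vehicle, grouped by the titles in the labels. The authors deposited linear intensities, 1 value for each probe set and array, reaching 17218. How probes were summarised, background was corrected and arrays were scaled is not given in the sources used here. Precision is limited by having 2 arrays a group. Of 23764 probe sets, 57 controls were removed. GEO's platform annotation gave 17279 probe sets 1 symbol, 373 several and 6055 none; 17223 matched RefSeq. Rule-matching probe sets with several symbols (8) were left out. The members, classes and lists were chosen with earlier results of these data known.

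No normalization was added. limma 3.58.1 in R 4.3.3 (lmFit, eBayes; 2 residual and 2.4 prior degrees of freedom) was fitted to log2(intensity + 16) for all 23707 probe sets without a filter or block, and tested on simulated data. A fold change on this scale understates that of dim probe sets. Genes given values were all called members, the Clk genes, the 2 brightest of each class, those with disagreeing probe sets and up to 3 called genes for each group of the other list; members outside this rule were named with their values seen. The 14 alternatives changed the pseudocount, normalization, filter, gene summary, variance prior, replicate block or the arrays used.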

Additional observations from a re-analysis of the deposited data

How the results depend on the processing

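With 2 arrays in each group, counts of calls and the signs of small medians moved between settings. The causes were not tested. Splicing factor genes higher with PDGF-BB, 7 as reported, were 1 with a pseudocount of 1, 13 with 64, 14 with array medians subtracted, 14 with the filter on dim probe sets (65 genes left), 19 with an intensity trend, 1 with the replicate block and 0 to 2 with 1 array left out. Those lower, 6 as reported, were 3 with a pseudocount of 1, 12 with 64, 14 after quantile normalization, 11 after cyclic loess, 11 with the filter, 13 with the trend, 5 with the replicate block and 0 to 8 with 1 array left out. Under the block 6 of the 13 calls remained; same-numbered arrays share only a number, and their deviations from the group means correlated at -0.098. The median log2 fold change of these genes, -0.02, was 0.06 with array medians subtracted, -0.08 after quantile normalization and -0.03 to 0.03 with 1 array left out.

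Other splicing genes higher, 15 as reported, were 8 with a pseudocount of 1, 23 with array medians subtracted, 26 with the trend and 2 to 7 with 1 array left out. Those lower, 11 as reported, were 5 with a pseudocount of 1, 21 with 64, 30 after quantile normalization, 20 after cyclic loess, 25 with the filter, 19 with the mean of all probe sets, 24 with the trend, 6 with the replicate block and 1 to 9 with 1 array left out. Of the single genes named by rule, Clk3 (0.0063 after cyclic loess), Sf3b1 (0.046 with array medians subtracted, -0.11 to 0.046 with 1 array left out), Snrpe (0.0047) and Srsf5 (0.044), these last with array medians subtracted, changed sign; none of these was called. At dim signal, Srsf3, Srsf7 and Srsf7-ps4 could not be judged.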
